A study of Mus musculus with 6 samples.

Results

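Cxcl12 and 4 genes tied to it, the receptor genes Cxcr4 and Ackr3 and the protease genes Dpp4 and Fap, were compared between stem cell factor-expressing bone marrow cells and whole bone marrow of the mouse. They were chosen by name and, like the gene lists below, with earlier results of these data known. Each was taken as the array row that carries only its symbol, and each of the 5 had exactly 1 such row among 19938 genes tested. RNA was measured on 6 Affymetrix whole-transcript arrays, 3 for each population, each from 5000 sorted cells of young adult C57BL/6 mice. Scf-GFP+ cells were double-sorted from mice heterozygous for a green fluorescent protein knocked into the gene of stem cell factor (Kitl), and whole bone marrow cells were sorted from wild-type mice, so cell population, genotype and sorting cannot be told apart. Knock-in heterozygotes carry 1 altered Kitl allele. Their cells were selected on expression from that gene, and whole marrow is a mixture in which each value averages over many cell types. The labels call the RNA aliquots independent without saying that they came from separate animals. The p-values therefore rest on the scatter among aliquots, which may be partly technical.

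CXCL12, also called SDF-1, is a chemokine made by marrow stromal cells that holds blood stem cells, B cell progenitors and neutrophils in the marrow. It acts through CXCR4, a receptor coupled to inhibitory G proteins on blood cells, while ACKR3, formerly CXCR7, binds the same chemokine, recruits beta-arrestin and removes the ligand. DPP4, also known as CD26, is a membrane peptidase that clips the amino end of CXCL12 and so inactivates it. FAP, fibroblast activation protein, is a close relative of DPP4 and is known as a peptidase of activated fibroblasts and mesenchymal stroma.

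The RefSeq promoter windows of GRCm38.p6, 250 bases before to 50 bases after the annotated start, held 4 of the 5 genes. The windows of Cxcl12, Cxcr4 and Dpp4 are shown because these transcripts were called, Cxcl12 higher and Cxcr4 and Dpp4 lower in Scf-GFP+ cells. All are written 5′ to 3′ on the gene's strand. Capitals mark matches on either strand to the GC box GGGCGG, the TATA box TATAAA, the core CCCNNGGG bound by EBF factors, the RUNX core TGTGGT, the forkhead core GTAAACA or the core GAGGAA of PU.1. Matches may overlap.

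Cxcl12 (chr6:117168285-117168584, plus strand): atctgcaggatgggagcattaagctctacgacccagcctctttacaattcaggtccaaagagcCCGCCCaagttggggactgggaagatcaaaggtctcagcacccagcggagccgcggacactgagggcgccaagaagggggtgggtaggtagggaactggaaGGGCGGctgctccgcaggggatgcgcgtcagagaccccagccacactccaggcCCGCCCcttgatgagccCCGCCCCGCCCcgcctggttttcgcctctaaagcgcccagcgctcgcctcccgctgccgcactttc
Cxcr4 (chr1:128592250-128592549, minus strand): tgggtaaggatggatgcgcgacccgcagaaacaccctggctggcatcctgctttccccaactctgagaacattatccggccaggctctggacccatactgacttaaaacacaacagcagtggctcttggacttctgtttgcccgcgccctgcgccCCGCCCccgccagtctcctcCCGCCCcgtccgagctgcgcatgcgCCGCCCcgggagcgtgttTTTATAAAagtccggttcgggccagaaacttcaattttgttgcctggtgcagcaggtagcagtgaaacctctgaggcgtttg
Dpp4 (chr2:62412182-62412481, minus strand): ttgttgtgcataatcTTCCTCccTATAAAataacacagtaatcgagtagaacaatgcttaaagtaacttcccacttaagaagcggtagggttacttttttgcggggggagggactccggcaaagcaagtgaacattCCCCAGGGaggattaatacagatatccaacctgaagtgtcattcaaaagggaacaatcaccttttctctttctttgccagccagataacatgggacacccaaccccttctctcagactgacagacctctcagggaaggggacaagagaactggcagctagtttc

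The Cxcl12 window held 5 GC boxes, the nearest pair overlapping by 1 base, and none of the other motifs searched. The Cxcr4 window held 3 GC boxes and overlapping TATA matches on both strands that begin 32 and 30 bases before the start. The Dpp4 window held no GC box, 1 EBF core 114 bases before the start, 1 TATA match 227 bases before it and 1 GAGGAA match 235 bases before it. Among 32851 windows of the same length, 35.7% held a GC box, 13.6% a TATA match, 13.7% an EBF core and 28.3% a GAGGAA match. G and C made up 64.7% of the Cxcl12 window, 59.3% of that of Cxcr4 and 45.3% of that of Dpp4, against a median of 52.7% over all windows. These matches are descriptions of letters, not of bound sites.

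The array table held log2 values made by RMA, which corrects background, equalises the arrays' distributions and summarises the probes of each transcript. Pearson correlations across genes, which are not independent replicates, lay between 0.97 and 0.98 within each population and between 0.82 and 0.83 between them. All 8 perivascular stromal markers (Kitl, Lepr, Pdgfra, Pdgfrb, Angpt1, Adipoq, Lpl, Ibsp) were higher in Scf-GFP+ cells, and all 7 pan-haematopoietic markers, Ptprc among them, were lower. Kitl was used for the sort and is not a finding, and Ibsp is also a gene of bone-forming cells. Of 5 measured osteoblast markers 3 were called higher (Alpl, Sp7 and Dmp1), 1 lower (Ifitm5) and 1 neither (Col1a1). Their list means were 8.25 to 8.60 in Scf-GFP+ cells against 7.01 to 7.05 in whole marrow. Of 10 endothelial markers 3 were called higher (Emcn, Eng and Cdh5), 1 lower (Pecam1) and 6 neither. Their list means were 6.57 to 7.05 against 6.29 to 6.44. Scf-GFP+ replicate 1 stood apart in neutrophil markers, whose mean over 11 genes was 10.00 there, 5.71 and 5.87 in replicates 2 and 3, and 12.06 to 12.14 in whole marrow. By Xist, which female cells express, Scf-GFP+ replicates 1 and 2 also differed from the other 4 arrays (11.50 and 11.81 against 4.99 to 5.10). The 3 Scf-GFP+ aliquots thus did not all come from 1 animal. Xist was high on Scf-GFP+ arrays only, so sex is partly confounded with population. A model with a term for this split compares Scf-GFP+ replicate 3 alone with whole marrow, so only its effect sizes are given below. Calls used limma with Benjamini-Hochberg adjustment over all genes, at an adjusted p below 0.05 and a difference of at least 2-fold, and 16.9% of all genes were called, 9.01% higher and 7.89% lower. Differences are Scf-GFP+ minus whole marrow on the log2 scale.

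Of the 5 genes, 2 were called higher in Scf-GFP+ cells (Cxcl12 and Fap), 2 lower (Cxcr4 and Dpp4) and 1 (Ackr3) neither. The called share stands beside 16.9% of all genes. The transcripts of the ligand and of its signalling receptor were higher in opposite populations, as were those of the related peptidases. For all 5 genes the arrays of the populations did not overlap, which held for 45.4% of all genes (19% higher and 26.4% lower in Scf-GFP+ cells), but for Ackr3 the gap was under 0.01. In bulk RNA, fewer cells of a type and less RNA per cell cannot be told apart.

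**Figure D1:**
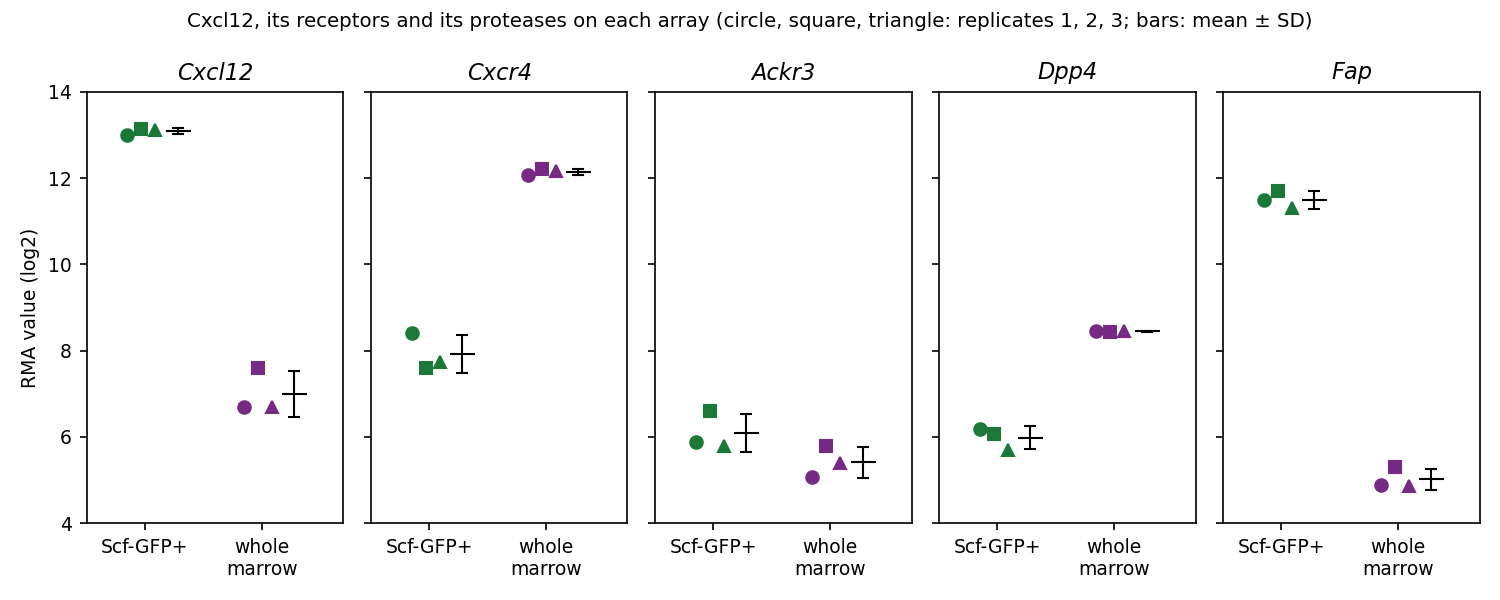
RMA log2 values of the 5 genes (vertical axis) on the 3 Scf-GFP+ arrays (green) and the 3 whole bone marrow arrays (purple), with circles, squares and triangles for replicates 1, 2 and 3 and bars for mean ± SD (n = 3). Cxcl12 and Fap sit more than 5 log2 units higher in Scf-GFP+ cells, Cxcr4 and Dpp4 lie lower without overlap, and the groups of Ackr3 nearly touch. Heights are to be compared within a gene, not between genes.

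Cxcl12, the ligand, measured 13.01, 13.15 and 13.11 on the 3 Scf-GFP+ arrays and 6.70, 7.60 and 6.69 on the whole marrow arrays. The lowest Scf-GFP+ array lay 5.41 above the highest whole marrow array, replicate 2. The difference was 6.09 ± 0.25 SE (68.3-fold, 95% interval 44.9 to 104.1, n = 3 per group, limma adjusted p = 1.19e-05). It ranked 22 among all 19938 genes by size of the increase. The Scf-GFP+ values were close to the highest value of the arrays, 13.30 to 13.41, where arrays lose resolution, so the fold may be understated. Their SD was 0.07, against 0.52 in whole marrow. Whole marrow replicate 2 was the highest of its group for Cxcl12, and also for Fap. The perivascular markers were divided in it. It was highest for Ibsp (6.51, with 6.04 and 5.85 in replicates 1 and 3), Adipoq (6.08, with 5.74 and 5.24), Angpt1 and Pdgfra. It was lowest for Kitl (4.56, with 4.90 and 5.05), Lepr (4.94, with 5.30 and 4.99) and Lpl (5.76, with 5.90 and 6.32), and Pdgfrb lay between. The mean of the 8 perivascular markers was 5.60, 5.61 and 5.55 on the 3 whole marrow arrays. Of all genes called higher 31.6% were highest in replicate 2, near the 29.6% of all genes tested. The part of stromal cells in the Cxcl12 value of that array was not tested. Without it the Cxcl12 difference was 6.40.

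Cxcr4, the signalling receptor, measured 8.42, 7.61 and 7.73 in Scf-GFP+ cells against 12.07, 12.22 and 12.16 in whole marrow. The whole marrow arrays were alike (SD 0.07), and the nearest Scf-GFP+ array was 3.65 below the lowest of them. The difference was -4.23 ± 0.22 SE (18.8-fold lower, 95% interval 13.0 to 27.0, n = 3 per group, limma adjusted p = 2.6e-05), rank 114 among all genes by size of the decrease. The highest Scf-GFP+ value came from replicate 1, the array high in neutrophil markers and in the pan-haematopoietic markers (mean 7.22, with 6.03 and 6.03 in replicates 2 and 3). B cell markers did not follow, at 5.96, 5.74 and 6.08 in the 3 Scf-GFP+ arrays, against 9.26 to 10.03 in whole marrow. Replicate 1 was the highest Scf-GFP+ array for 60.6% of the genes called lower by at least 8-fold, beside 33.2% of all genes. Without replicate 1, the Cxcr4 difference was larger, at -4.48 (limma adjusted p = 2.22e-05). Median differences of the blood marker lists were -5.18 for erythroid, -4.89 for neutrophil, -3.75 for pan-haematopoietic, -3.22 for B cell, -2.09 for monocyte and macrophage, -1.02 for stem and progenitor, -0.89 for megakaryocyte and -0.59 for T and NK cell markers. The part of each cell type in the Cxcr4 difference was not tested.

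**Figure D2:**
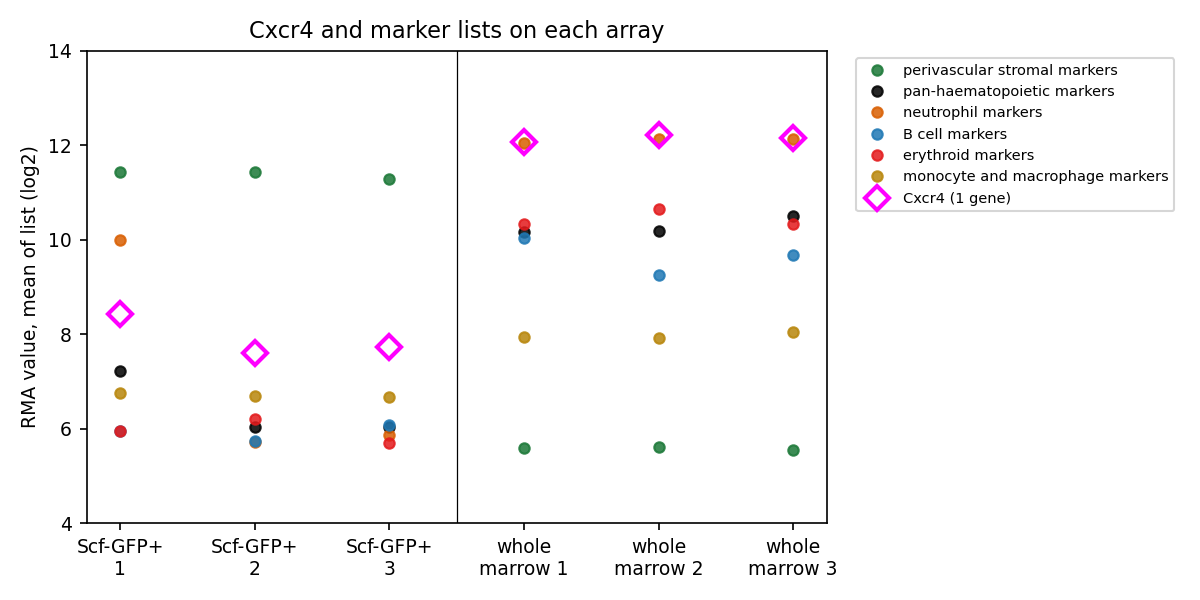
Cxcr4 (open diamonds) and the mean RMA log2 value of 6 marker lists (dots) on each of the 6 arrays. From left to right, Scf-GFP+ replicate 1 is the one with raised neutrophil markers (10.00) and the highest Cxcr4 of its group (8.42), and the whole marrow arrays are alike. Each colour is to be followed across arrays, since heights of different genes are not comparable.

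Ackr3, the scavenging receptor, measured 5.88, 6.61 and 5.79 in Scf-GFP+ cells against 5.06, 5.78 and 5.40 in whole marrow. The groups were separate by less than 0.01, since the lowest Scf-GFP+ array and the highest whole marrow array were nearly equal. The difference of 0.68 ± 0.27 SE (1.60-fold, 95% interval 1.02 to 2.53, n = 3 per group) did not pass the test (limma adjusted p = 0.121). The interval includes a 2-fold increase and almost no change. Scf-GFP+ replicate 2 was the highest, and without it the difference was 0.42. The whole marrow mean of 5.41 lay near the arrays' first quartile (5.19 to 5.31), where arrays lose resolution, and a low value here is not read as absence.

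Dpp4, the peptidase that inactivates CXCL12, measured 6.19, 6.08 and 5.69 in Scf-GFP+ cells against 8.46, 8.43 and 8.45 in whole marrow. Its whole marrow values were the tightest of the 5 genes, with an SD of 0.01, and every Scf-GFP+ array was at least 2.25 lower. The difference was -2.46 ± 0.15 SE (5.50-fold lower, 95% interval 4.31 to 7.03, n = 3 per group, limma adjusted p = 5.12e-05). Dpp4 is known from T cells, among other cells. Of 9 measured T and NK cell markers 4 were called lower (44.4%, beside 7.89% of all genes). The mean over that list was 5.44 to 5.55 in Scf-GFP+ cells against 6.65 to 7.07 in whole marrow. The part of T and NK cells in the Dpp4 difference was not tested.

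Fap measured 11.49, 11.71 and 11.30 in Scf-GFP+ cells against 4.88, 5.31 and 4.87 in whole marrow. Each whole marrow value was near or below the first quartile of the arrays, where arrays lose resolution, so the size of the fold is approximate and may be understated. The groups were 5.99 apart at their nearest. The difference was 6.48 ± 0.17 SE (89.2-fold, 95% interval 67.2 to 118.5, n = 3 per group, limma adjusted p = 2.51e-06), rank 14 among all genes by size of the increase. Fap and Dpp4, which encode related enzymes, are neighbours in the mouse genome with Gcg, the glucagon gene, between them, and moved in opposite directions. Gcg measured 5.29 to 5.68 in Scf-GFP+ cells against 5.44 to 5.77 in whole marrow, and its difference of -0.14 ± 0.15 did not pass the test (limma adjusted p = 0.523). Of the next 3 protein-coding genes on either side, Gca was called lower, at -3.94 ± 0.41, and the other 5 (Psmd14, Tbr1, Slc4a10, Ifih1 and Kcnh7) were not called. Gca, which encodes a calcium-binding protein known from granulocytes, measured 6.07, 4.80 and 4.89 on the Scf-GFP+ arrays, with replicate 1 the highest, as for most genes called lower by at least 8-fold. These adjacent genes were looked up after the members' values were seen.

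**Figure D3:**
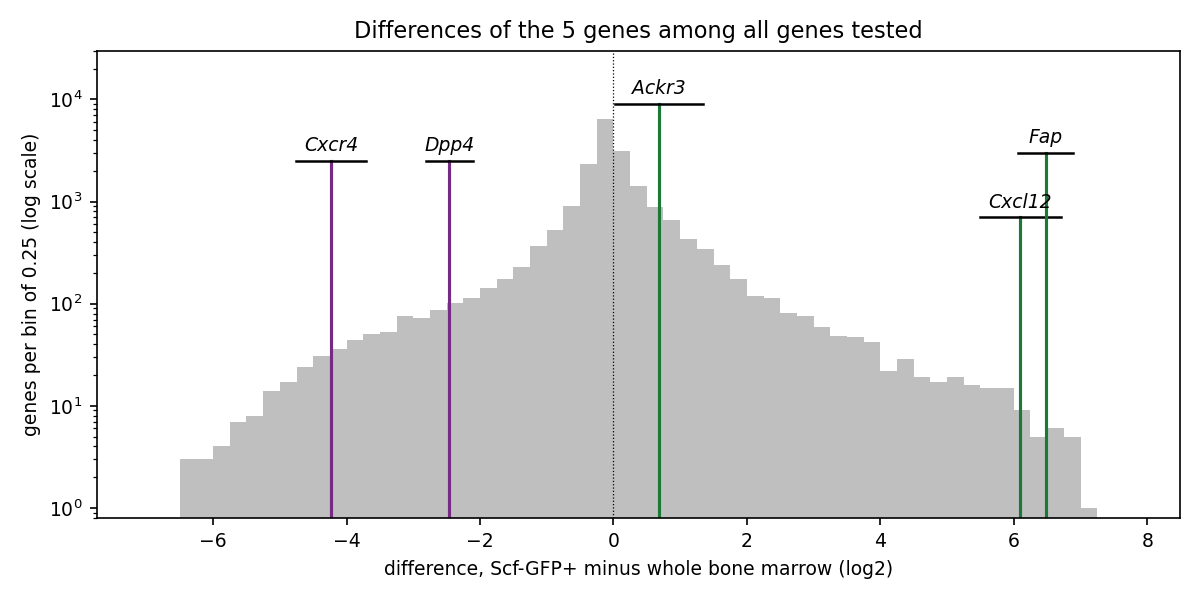
Distribution of the difference, Scf-GFP+ minus whole bone marrow (log2, horizontal axis), over 19938 genes (grey, counts per bin of 0.25 on a log axis), with the 5 genes as vertical lines and their 95% intervals as horizontal bars. Cxcl12 and Fap lie in the far upper tail, Cxcr4 and Dpp4 in the lower tail, and Ackr3 within the bulk of the genes. The height of a line carries no value.

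Other transcripts came closest to each of these profiles when all 19938 genes, centred on their means over the 6 arrays, were compared by the root mean square difference in log2 units. Nearest to Cxcl12 were Bicc1, an RNA-binding protein gene (0.126), the collagenase gene Mmp13 (0.185) and the amylase gene Amy1 (0.196). For Fap they were the ceruloplasmin gene Cp (0.101), Esm1 (0.136) and the BMP antagonist gene Chrdl1 (0.159). For Cxcr4 they were Tuba4a (0.145), the lipoxygenase gene Alox5 (0.145) and Atf3 (0.151). For Dpp4 they were the replication gene Mcm7 (0.096), Fosl1 (0.104) and the thymidine kinase gene Tk1 (0.118). For Ackr3 they were Spcs3, Htatsf1 and Zcchc7, at 0.122 to 0.131. With 2 populations and 6 arrays such likeness mostly reflects an equal shift between the groups for the members other than Ackr3. Ackr3 shifted by only 0.68, with an SD of 0.45 among Scf-GFP+ arrays and 0.36 among whole marrow arrays. The median SDs over all genes were 0.17 and 0.16. Its likeness to these genes therefore also reflects scatter within the groups. Pearson r with the member was 0.96 to 1.00 in every case.

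The network list of other ligands and receptors is mixed, and includes some known for ligands other than CXCL12. Of its 16 genes, 3 were called higher, 5 lower and 8 neither, with a median difference of -0.19 beside -0.08 over all genes. The shares, 18.8% and 31.2%, stand beside 9.01% and 7.89% of all genes. Cxcl14, another CXC chemokine, measured 11.51 to 11.86 in Scf-GFP+ cells against 6.08 to 6.40 in whole marrow, a difference of 5.43 ± 0.14 (limma adjusted p = 2.47e-06). Ackr4, which scavenges the CC chemokines CCL19, CCL21 and CCL25, rose by 4.11 ± 0.20. Its values were 10.07, 10.38 and 10.50 in Scf-GFP+ cells against 6.25, 6.50 and 5.88 in whole marrow. Gpr182, an endothelial scavenging receptor gene, was just past 2-fold at 1.06 ± 0.09. Of 10 endothelial markers, Emcn, Eng and Cdh5 were also called higher, Pecam1 was called lower (-1.90) and 6 were not called. The part of endothelial cells in the Gpr182 difference was not tested. Lower were Ccrl2, which binds chemerin, at -3.53 ± 0.23, Cd74, the invariant chain and receptor for the cytokine MIF, at -3.52 ± 0.26, Ackr1, the Duffy antigen, at -1.30 ± 0.13, and Cxcr5, a homing receptor gene of B cells, at -1.06 ± 0.25. Cxcr5 had a mean of 4.32 in Scf-GFP+ cells, below the arrays' first quartile (5.19 to 5.31), and 5.38 in whole marrow, near it. It was not called without Scf-GFP+ replicate 1 (limma adjusted p = 0.0662), Scf-GFP+ replicate 2 (0.0676), whole marrow replicate 1 (0.0749) or whole marrow replicate 3 (0.0670), nor after a further quantile normalization (-0.97). With a term for the split of arrays by Xist, and so for Scf-GFP+ replicate 3 alone, it differed by -0.86.

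Cxcr2, the chemokine receptor of neutrophils, measured 9.63, 5.05 and 5.31 in Scf-GFP+ cells against 11.39 to 11.64 in whole marrow. Replicate 1 lay far above replicates 2 and 3. The difference was -4.89 ± 1.16 (limma adjusted p = 0.0216) and -6.37 without replicate 1 (limma adjusted p = 1.82e-05). With a term for the Xist split, and so for Scf-GFP+ replicate 3 alone, it was -6.25. With replicate 1 kept, leaving out any other array ended the call (limma adjusted p = 0.0608 and 0.0618 without Scf-GFP+ replicates 2 and 3, and 0.0623, 0.0643 and 0.0694 without whole marrow replicates 1, 2 and 3). Mif was not called, with means of 11.62 ± 0.15 and 11.47 ± 0.32 (SD, n = 3) in the stromal and whole marrow samples. Cd164, a sialomucin that associates with CXCR4, differed by 0.97 ± 0.30 and was not called (limma adjusted p = 0.0570). It was called without whole marrow replicate 2 (1.33, limma adjusted p = 0.0017), after a further quantile normalization (1.05, 0.0433) and with array weights (1.00, 0.0492). Cxcl11, another ligand of ACKR3, differed by -0.02 ± 0.10.

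**Figure D4:**
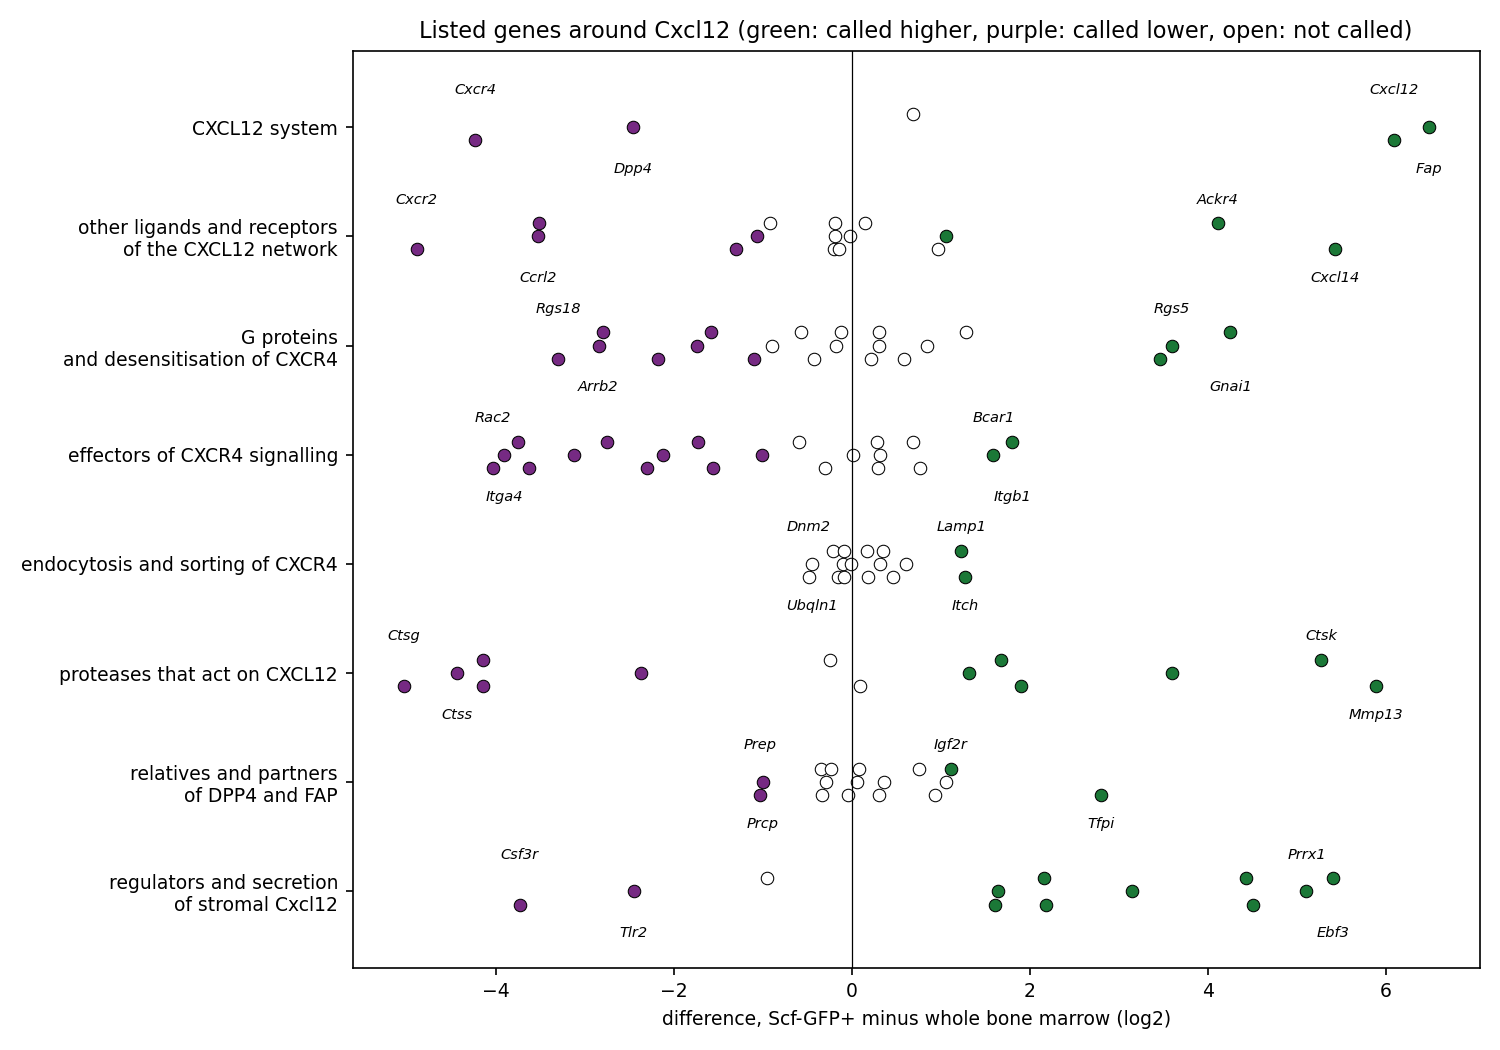
Differences, Scf-GFP+ minus whole bone marrow (log2, horizontal axis), of the 5 genes and of the measured genes of 7 lists around them, 1 row per list and 1 dot per gene, green where called higher, purple where called lower and open where not called. Vertical offsets within a row only separate dots, and names mark the outermost genes of each list. Effectors of CXCR4 lie mostly on the left and regulators of Cxcl12 mostly on the right, while proteases fall on both sides.

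The machinery that CXCR4 signals through was lower in part. Of 21 measured effectors 11 were called lower, 2 higher and 8 neither (median difference -1.01), so 52.4% were lower beside 7.89% of all genes. Rac2, the Rac GTPase of blood cells, differed by -4.03 ± 0.34, and Vav1 and Dock2, which activate Rac proteins in blood cells, by -3.75 ± 0.19 and -3.63 ± 0.34. The widely expressed GTPase genes Rac1, Rhoa and Cdc42 were not called, at 0.29, 0.30 and 0.01. Itga4, the alpha chain of the integrin VLA-4 that CXCL12 activates on blood cells, differed by -3.91 ± 0.33, whereas Itgb1, its beta chain, which pairs with many alpha chains, was higher by 1.80 ± 0.12. Itgb1 measured 11.52 to 11.56 in Scf-GFP+ cells against 9.60 to 9.95 in whole marrow. The adaptor gene Bcar1 was the other one called higher, at 1.59 ± 0.29. Pik3cd, Pik3cg and Pik3r5, of the leukocyte phosphoinositide 3-kinases, were lower by -2.30, -2.12 and -1.73. Lower effectors such as Vav1 are also markers of blood cells. The pan-haematopoietic list, which contains Vav1, had a mean of 6.03 to 7.22 in Scf-GFP+ cells against 10.16 to 10.50 in whole marrow, and its part in these decreases was not tested.

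Of 21 measured G proteins and genes that switch CXCR4 off, 3 were called higher and 7 lower. These shares, 14.3% and 33.3%, stand beside 9.01% and 7.89% of all genes. The inhibitory G protein gene Gnai1 measured 9.59, 9.78 and 10.15 in Scf-GFP+ cells against 5.54, 5.40 and 5.82 in whole marrow, higher by 4.25 ± 0.18 (limma adjusted p = 1.33e-05). Its relatives Gnai2 and Gnai3 were not called, at -0.43 ± 0.14 and 0.30 ± 0.13, nor was the beta subunit gene Gnb1, at 0.59 ± 0.16. The RGS proteins, which end G protein signals, were divided. Rgs5 and Rgs16 were higher by 3.59 ± 0.39 and 3.47 ± 0.34, and Rgs18, Rgs1 and Rgs2 lower by -3.30 ± 0.27, -2.80 ± 0.27 and -2.18 ± 0.15. Of the beta-arrestins, which uncouple and internalise chemokine receptors, Arrb2 was lower by -2.85 ± 0.15 and Arrb1 was not called (-0.18 ± 0.24).

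Of 16 genes for the uptake and sorting of CXCR4, limma called 2 higher and 0 lower, and 87.5% were not called, near the 83.1% of all genes. At an unadjusted p below 0.05 there were 3 higher and 2 lower (18.8% and 12.5%, beside 18.1% and 19.6% of all genes). Those called were Itch, the ubiquitin ligase that marks CXCR4 for lysosomes, at 1.27 ± 0.26 (limma adjusted p = 0.0116), and Lamp1, a lysosomal membrane protein, at 1.23 ± 0.16. In a model with a term for the split of arrays by Xist, and so for Scf-GFP+ replicate 3 alone, Itch differed by 0.69. Rab7, a GTPase of late endosomes, and Usp8, a deubiquitinating enzyme, differed by -0.01 ± 0.12 and 0.32 ± 0.16 and were not called.

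Proteases reported to cut CXCL12 were called in both directions. Of 13, 6 were higher, 5 lower and 2 neither. The shares called higher and lower, 46.2% and 38.5%, stand beside 9.01% and 7.89% of all genes. Those higher were the collagenase Mmp13 at 5.89 ± 0.19, cathepsin K (Ctsk) at 5.27 ± 0.20, the membrane-bound Mmp14 at 3.59 ± 0.11, the gelatinase Mmp2 at 1.90 ± 0.39, aminopeptidase N (Anpep) at 1.68 ± 0.30 and carboxypeptidase D (Cpd) at 1.32 ± 0.25. Of the measured osteoblast markers, Alpl, Sp7 and Dmp1 were called higher on the same arrays, Ifitm5 was called lower (-1.41) and Col1a1 was not called (0.28). The part of osteoblasts in these protease differences was not tested. Mmp13 measured 12.11, 12.19 and 11.86 in Scf-GFP+ cells against 5.97, 6.55 and 5.97 in whole marrow. Those lower included the granule proteases cathepsin G (Ctsg) at -5.03 ± 0.15 and neutrophil elastase (Elane) at -4.14 ± 0.14, with cathepsin S (Ctss) at -4.44 ± 0.37 and the gelatinase Mmp9 at -4.15 ± 0.46. Elane measured 5.92, 5.73 and 5.52 in Scf-GFP+ cells against 9.75 to 10.03 in whole marrow, without the high value in Scf-GFP+ replicate 1 that Mmp9 had (8.02, with 6.78 and 6.10 in replicates 2 and 3). Carboxypeptidase M (Cpm), the fifth, differed by -2.37 ± 0.55 (limma adjusted p = 0.0200) and was not called when any Scf-GFP+ array or whole marrow replicate 3 was left out (limma adjusted p = 0.0590, 0.0541 and 0.0515 for Scf-GFP+ replicates 1, 2 and 3, and 0.0718), and differed by -3.04 without whole marrow replicate 2. With a term for the Xist split, and so for Scf-GFP+ replicate 3 alone, Mmp2, Cpd and Cpm differed by 1.44, 1.01 and -2.34.

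Of 16 relatives and partners of DPP4 and FAP, 2 were called higher and 2 lower (12.5% each, beside 9.01% and 7.89% of all genes), shares near those of all genes. The cytosolic relatives Dpp8 and Dpp9 differed by 0.37 ± 0.23 and 0.05 ± 0.23, and Dpp6 and Dpp10, which lack peptidase activity, by -0.04 ± 0.11 and -0.29 ± 0.09. All Dpp6 and Dpp10 values lay below the arrays' first quartile (5.19 to 5.31), where arrays lose resolution, so their small differences are not read as equal expression. Tfpi, tissue factor pathway inhibitor, which has been described as an inhibitor of DPP4, was higher by 2.80 ± 0.43, measuring 9.79, 10.08 and 8.34 in Scf-GFP+ cells against 6.54 to 6.67 in whole marrow. With a term for the Xist split, and so for Scf-GFP+ replicate 3 alone, it was higher by 1.74. Cdh5 (7.54, 8.09 and 6.55 on the Scf-GFP+ arrays) and Emcn (7.50, 7.68 and 7.02) were also lowest in replicate 3. They are endothelial markers called higher, as is Eng, which was highest there (7.83, 7.81 and 8.04). The mean over the 10 endothelial markers was 7.05, 6.90 and 6.57. The part of endothelial cells in the Tfpi difference was not tested. Igf2r, the mannose 6-phosphate receptor that binds DPP4 on T cells, was higher by 1.11 ± 0.13. The prolyl peptidases Prep and Prcp were lower by -1.03 ± 0.23 and -1.00 ± 0.17, at the 2-fold boundary. Without Scf-GFP+ replicate 1 they differed by -0.97 and -0.83, without whole marrow replicate 3 by -0.80 and -0.97, and neither was then called. Without Scf-GFP+ replicate 2, Prep was not called (-0.94).

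Genes known to control or release stromal CXCL12 were mostly higher in Scf-GFP+ cells. Of 12 measured, 9 were called higher, 2 lower and 1 neither. The shares, 75.0% higher and 16.7% lower, stand beside 9.01% and 7.89% of all genes. The median difference was 2.17, beside -0.08 over all genes. This list, like the others, was drawn up with earlier results of these data known. Ebf3, an early B cell factor that maintains CXCL12-abundant reticular cells, measured 11.75 to 11.92 in Scf-GFP+ cells against 6.30 to 6.71 in whole marrow (5.40 ± 0.14). Foxc1, a forkhead factor needed for the same cells, measured 8.84, 9.76 and 9.74 in Scf-GFP+ cells against 4.86 to 5.10 in whole marrow (4.43 ± 0.26). The connexin genes Gja1 and Gjc1, whose channels are needed for CXCL12 release by marrow stroma, were higher by 4.51 ± 0.22 and 3.15 ± 0.15. Prrx1, a mesenchymal homeobox factor, was higher by 5.11 ± 0.14, and Hif1a, a factor that induces Cxcl12 in low oxygen, by 1.65 ± 0.23. Those called lower, Csf3r, the receptor for G-CSF, at -3.73 ± 0.43 and the Toll-like receptor gene Tlr2 at -2.45 ± 0.22, are also expressed by myeloid blood cells. Cebpb, at -0.95 ± 0.11, fell short of 2-fold and was not called. It passed 2-fold without Scf-GFP+ replicate 3 or whole marrow replicate 1, at -1.00 in each case.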

How the data were processed

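Expression was measured on 6 Affymetrix Mouse Gene ST 1.0 arrays, 3 of Scf-GFP+ cells and 3 of whole bone marrow cells. RNA was amplified with the NuGEN Pico system before labelling, per the labels' protocols. The authors deposited log2 values, and limma, affy and RMA appear in the submitters' processing notes with no version. The build of the annotation is not given in the sources used here. These values were used as deposited. Of 28940 rows, 21789 carried exactly 1 gene symbol, 1621 several and 5530 none in the platform annotation. Symbols were checked through Entrez identifiers (91 not matched), and the row with the highest mean stood for a gene, leaving 19938. Groups were compared with limma 3.58.1 (lmFit, eBayes) in R 4.3.3 without covariates, and every adjusted p comes from limma unless stated otherwise. The precision is limited by the number of arrays, and ± beside a difference is limma's moderated SE. The members and lists were chosen with earlier results of these data known. Named genes are the 5 members, per list up to 4 called genes per direction with the largest difference and no overlap between groups, up to 2 uncalled genes with the highest mean, further members needed to describe a list, and 3 nearest profiles per member, leaving out unnamed transcripts. The fit was tested on simulated data. Alternatives were further normalization, variance models, array weights, a filter on the dimmest 30% of genes, other rules for rows, each array left out, the replicate number as a block, a term for the Xist split and a test against 2-fold. Genes of the lists with no row of their own are not analysed here.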

Additional observations from a re-analysis of the deposited data

How the results depend on the processing

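Cxcl12, Fap, Cxcr4 and Dpp4 kept their direction and call under all 17 alternatives. Not all of these could move a difference. The variance models, the filter, the replicate block and the test against 2-fold leave it as it is and change only errors or p-values. The rules for rows offered no other value, since each member had 1 row. Their differences ranged from 5.94 to 6.40, 6.28 to 6.62, -4.48 to -4.08 and -2.75 to -2.31. The model with a term for the Xist split rests on Scf-GFP+ replicate 3 alone, and gave the 6.28 of Fap and the -2.75 of Dpp4. Ackr3 stayed higher without a call under the 16 alternatives that gave it a value (0.38 to 0.87), and the filter on the dimmest 30% of genes removed it. Deviations from the group means correlated across genes at -0.06, -0.02 and 0.07 for equal replicate numbers, and at -0.09 to 0.11 for unequal ones. By this measure equal numbers were no more alike, but whether they shared a day or batch was not tested. Each replicate number occurs once in each group, so the replicate block cannot change a difference, only its error. The 5 differences were therefore the same by construction (6.09 for Cxcl12, -4.23 for Cxcr4, 0.68 for Ackr3, -2.46 for Dpp4 and 6.48 for Fap). Ackr3 then had a limma adjusted p of 0.0308 but remained under 2-fold, and 1775 genes were called higher and 1563 lower. The block changed no count of the lists. Testing against 2-fold, which asks for more than 2-fold by construction, left 792 genes higher and 792 lower of 1796 and 1574. It also left 2 lower network receptors and ligands, 1 higher effector, 0 higher sorting genes, 3 higher proteases and 1 higher and 0 lower relatives of DPP4 and FAP. Among genes named above, Ackr1, Gpr182, Cxcr2, Cxcr5, Bcar1, Itch, Lamp1, Mmp2, Anpep, Cpd, Cpm, Igf2r, Prep, Prcp and Hif1a lost the call in that test. With arrays centred on their medians 1 relative was lower. The term for the Xist split, which rests on Scf-GFP+ replicate 3 alone, moved Rgs5 to 2.70, Anpep to 2.28, Mmp9 to -5.01 and Csf3r to -4.32. Leaving out single arrays gave 3 to 4 lower network genes and 0 to 2 lower relatives. Where no value is given for it, the cause was not tested. Of 356 comparisons of a value with its alternative, 340 kept direction and call or stayed within 1.5 times the count. That number includes the alternatives that could not move a difference. With 3 arrays per group, values near the lower and upper ends of the arrays' range limit what Ackr3 and the sizes of the Cxcl12 and Fap differences can show.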
